A study of Mus musculus with 12 samples.

Results

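The 33 genes described here encode contractile, calcium-handling and energy-buffering proteins of skeletal muscle fibres, read in brown adipose tissue (BAT). They were picked by gene symbol: 15 are typical of fast fibres, 7 of slow fibres, and 11 are used by both fibre types (shared). All 33 were found among the 25124 genes of the BAT expression table. The RNA came from interscapular BAT of male mice 10 weeks old, and each of the 12 libraries holds polyadenylated RNA of whole tissue. WT mice and Txnip-/- mice, which lack the thioredoxin-interacting protein that restrains glucose uptake, had been kept for 1 week at room temperature (RT, 23 °C) or at thermoneutrality (TN, 30 °C), where mice need little heat from BAT. Each genotype has 3 libraries at each temperature, and a library is named by temperature, genotype and replicate (RT WT replicate 1). The sources name no tissue-specific driver for the deletion, and they do not say that each library is a separate mouse, so the p-values below measure the spread between these libraries.

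A skeletal muscle fibre shortens when myosin heads pull on actin filaments, and troponin on those filaments lets them do so once calcium leaves the sarcoplasmic reticulum. Fast and slow fibres build this machine from different isoforms of the same subunits, each made from its own gene, while actin, the muscle creatine kinase and the giant scaffold proteins are common to both. Brown adipocytes descend from a precursor that also gives skeletal muscle, and interscapular BAT lies directly on muscle. The question asked of these genes was whether they keep constant ratios across libraries, as RNA from a single muscle source would, or move apart. Whether a level comes from more cells of a type or from more RNA per cell cannot be told apart in whole tissue.

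The libraries matched their labels for the deleted gene. Txnip was between 563.6 and 693.9 TPM (a level scaled to transcript length and library depth) in RT WT and between 1072 and 1238 TPM in TN WT, against 24.8 to 35.4 TPM in RT Txnip-/- and 10.5 to 14.4 TPM in TN Txnip-/-. All 10 brown adipocyte markers listed averaged at least 1 TPM, and Ucp1, the heat-producing uncoupler, lay between 154.0 and 4366 TPM. Between 19186771 and 29232408 gene reads per library stood behind the TPM.

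The 250 bases before the transcription start of 3 members are shown because the genes behave differently in these libraries: Myh4 and Acta1 were high in the same few libraries, while Des was expressed in all. Sequences and starts are from RefSeq on GRCm38.p6, and they run 5′ to 3′ on the strand of the gene. Capitals mark E-boxes (CANNTG, the core bound by MyoD and other factors), CArG boxes (the site of serum response factor) and MEF2 sites (the site of the MEF2 family), read on both strands.
Myh4: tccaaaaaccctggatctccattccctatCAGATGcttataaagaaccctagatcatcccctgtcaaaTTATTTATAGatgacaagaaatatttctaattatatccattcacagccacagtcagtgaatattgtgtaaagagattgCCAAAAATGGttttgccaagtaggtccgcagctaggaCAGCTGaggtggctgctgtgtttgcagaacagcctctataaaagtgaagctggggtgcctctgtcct
Acta1: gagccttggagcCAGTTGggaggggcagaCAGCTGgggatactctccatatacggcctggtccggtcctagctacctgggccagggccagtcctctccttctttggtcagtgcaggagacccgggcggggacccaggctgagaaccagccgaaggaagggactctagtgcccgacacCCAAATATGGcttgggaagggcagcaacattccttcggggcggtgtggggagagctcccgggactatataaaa
Des: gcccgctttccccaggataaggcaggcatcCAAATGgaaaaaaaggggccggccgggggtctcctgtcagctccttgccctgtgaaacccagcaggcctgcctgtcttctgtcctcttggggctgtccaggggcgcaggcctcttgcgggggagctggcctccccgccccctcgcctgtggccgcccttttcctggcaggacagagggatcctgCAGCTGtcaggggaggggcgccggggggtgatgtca
The Myh4 stretch is chr11:67237562-67237811 on the plus strand and ends just before the gene, which encodes the fastest myosin heavy chain. The Acta1 stretch is chr8:123894776-123895025 on the minus strand, before the gene of skeletal alpha-actin. The Des stretch is chr1:75360042-75360291 on the plus strand, before the gene of desmin, the intermediate filament of all muscle types. Of the 33 genes, 26 had a promoter window of 300 bases (250 before to 50 after the start), and some had several, giving 32 windows. An E-box was in 27 of the 32 windows (84.4%) and in 72.3% of the 32851 windows of all genes. A CArG box was in 3 windows (9.4%; Myh4, Acta1 and Myl3) against 1.6% of all windows. A MEF2 site was in 4 windows (12.5%; Myh1, Myh4, Pvalb and Ttn) against 1.9%, and 3 of these 4 genes are fast. These matches describe letters in a window and say nothing on binding in BAT.

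Myh4, Atp2a1, Tnnt3, Tnnc2, Tnni2 and Pvalb of the fast genes and Acta1 and Ckm of the shared genes were higher in 5 libraries than in the other 7, where all 8 stayed under 1 TPM. The 5 were all 3 RT Txnip-/- libraries, replicate 2 of TN WT and replicate 2 of TN Txnip-/-. At least 1 TPM was reached by 16, 13 and 20 of the 33 genes in RT Txnip-/- replicates 1 to 3, and by 14 genes in each of the 2 TN libraries. In each of the other 7 libraries 5 or 6 genes reached 1 TPM.

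**Figure D1:**
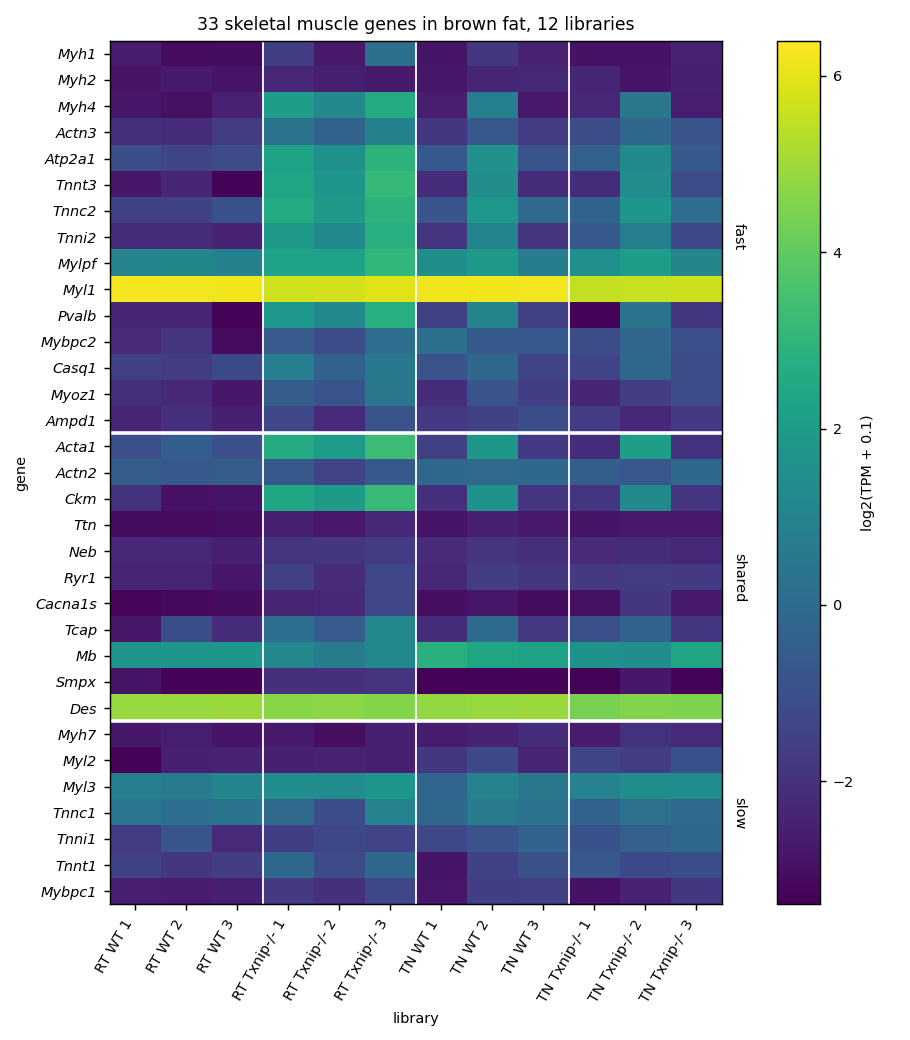
Level of the 33 genes (rows, grouped as fast, shared and slow) in the 12 libraries (columns), as log2(TPM + 0.1) on the colour scale. Brighter cells of Myh4, Atp2a1, Tnnt3, Tnnc2, Tnni2, Pvalb, Acta1 and Ckm stand in the 3 RT Txnip-/- libraries and in replicate 2 of TN WT and of TN Txnip-/-, while Myl1 and Des are bright in all 12.

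Acta1, the actin of the skeletal thin filament (chr8:123891758-123894775), stood at 0.39, 0.62 and 0.39 TPM in RT WT, and at 6.05, 3.98 and 9.76 TPM in RT Txnip-/-. In TN WT it was 0.25, 3.35 and 0.20 TPM, and in TN Txnip-/- 0.13, 4.109 and 0.15 TPM. The group means ± SD (n = 3) were 0.468 ± 0.130, 6.59 ± 2.93, 1.27 ± 1.80 and 1.46 ± 2.29 TPM. The 2 genotypes did not overlap at RT, while at TN 1 library of each genotype was high and the other 2 were low. The reads behind Acta1 were 13, 20 and 10 in RT WT, 184, 111 and 307 in RT Txnip-/-, 9, 92 and 5 in TN WT, and 3, 124 and 4 in TN Txnip-/-.

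Ckm, the creatine kinase that buffers ATP in muscle, was at 0.16, 0.03 and 0.04 TPM in RT WT and at 5.41, 3.75 and 9.32 TPM in RT Txnip-/-. At TN it was 0.14, 2.90 and 0.17 TPM in WT and 0.18, 2.33 and 0.16 TPM in Txnip-/-. These are the same high libraries as for Acta1. Tnnc2, the calcium sensor of fast troponin, was at 0.26, 0.27 and 0.42 TPM in RT WT and at 6.01, 3.78 and 7.59 TPM in RT Txnip-/-. At TN it was 0.47, 3.44 and 0.88 TPM in WT and 0.74, 3.21 and 0.99 TPM in Txnip-/-. Tnnc2 again had replicate 2 of both TN groups above the rest.

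The heavy chain genes split by fibre subtype. Myh4, for the type 2B chain, was at 0.05, 0.03 and 0.08 TPM in RT WT and at 4.17, 2.19 and 6.09 TPM in RT Txnip-/-, and at TN it reached 1.69 TPM in WT replicate 2 and 1.29 TPM in Txnip-/- replicate 2 with at most 0.11 TPM in the other 4 libraries. Myh1, for the type 2X chain, reached 1.06 TPM (136 reads) in RT Txnip-/- replicate 3 and at most 0.23 TPM (29 reads) elsewhere. Myh2, for the type 2A chain, was at most 0.11 TPM in any library, and Myh7, for the slow chain, at most 0.15 TPM. Myh4 was thus the highest of the 4 heavy chain genes in each of the 5 libraries with high Acta1.

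Other fast and shared genes ranged from several TPM to near 0. Atp2a1 (the calcium pump of fast fibres), Tnnt3 and Tnni2 (the other fast troponin subunits) and Pvalb (a calcium buffer) peaked between 6.64 and 8.91 TPM in RT Txnip-/- replicate 3. Actn3, Casq1, Myoz1, Mybpc2 and Tcap stayed at or under 2.08 TPM in all libraries. Ttn, Neb, Ryr1, Cacna1s, Smpx and Ampd1, for scaffold, calcium-channel, small regulatory and purine-cycle proteins, stayed at or under 0.44 TPM. Smpx was listed at 0 in all 3 TN WT libraries.

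Of the 33 genes, 12 had the same 5 highest libraries as Acta1, Acta1 itself included: 9 of 15 fast genes (Myh4, Actn3, Atp2a1, Tnnt3, Tnnc2, Tnni2, Mylpf, Pvalb and Casq1), 3 of 11 shared genes (Acta1, Ckm and Tcap) and 0 of 7 slow genes. Of all 22936 genes with a value above 0, 26 (0.113%) had those 5 libraries highest. The set of 5 was read off Acta1, so this count is a description.

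Myl1, Des and Mb did not follow this pattern. Myl1, an essential light chain of fast myosin (chr1:66924296-66935366), was the most abundant of the 33, at 76.6, 74.3 and 73.2 TPM in RT WT and 52.1, 52.8 and 62.4 TPM in RT Txnip-/-. At TN it was 73.2, 72.1 and 73.9 TPM in WT and 44.98, 48.0 and 50.1 TPM in Txnip-/-. All 6 Txnip-/- libraries were below all 6 WT libraries, and the libraries with high Acta1 were not those with high Myl1.

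Des was at 29.6, 29.5 and 30.1 TPM in RT WT and 25.2, 25.8 and 23.7 TPM in RT Txnip-/-, and at 28.1, 29.8 and 30.6 TPM in TN WT and 20.7, 23.4 and 22.5 TPM in TN Txnip-/-. Desmin RNA was thus also lower in every Txnip-/- library than in every WT library. Mb, for the oxygen store myoglobin, was at 3.19, 3.34 and 3.23 TPM in RT WT and 2.07, 1.61 and 2.14 TPM in RT Txnip-/-, and at 6.93, 5.15 and 4.62 TPM in TN WT and 3.01, 2.56 and 5.14 TPM in TN Txnip-/-. Its genotypes did not overlap at RT and did at TN. Mylpf, the regulatory light chain of fast myosin, lay between these patterns. Its levels were 1.87, 2.05 and 1.79 TPM in RT WT and 4.67, 4.68 and 8.37 TPM in RT Txnip-/-. At TN they were 2.704, 3.66 and 1.58 TPM in WT and 2.75, 4.10 and 2.01 TPM in Txnip-/-. It was at 1.58 TPM or more in all 12 libraries and was highest in the 5 with high Acta1.

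**Figure D2:**
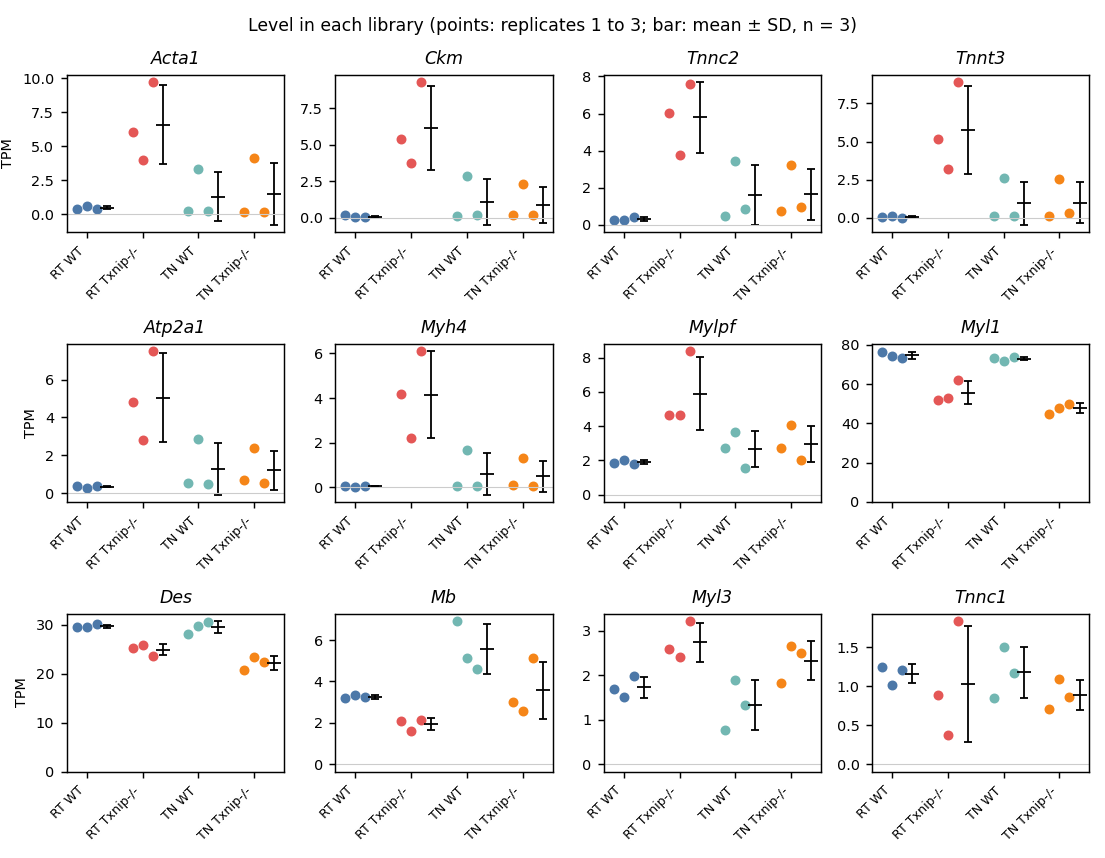
TPM (y axis) of 12 of the genes in the 4 groups (x axis), with 1 point per library in the order of replicates 1 to 3 and a bar for the mean ± SD (n = 3). Acta1, Ckm, Tnnc2, Tnnt3, Atp2a1 and Myh4 show 3 raised points in RT Txnip-/- and 1 in each TN group, Myl1 and Des step down in Txnip-/- at both temperatures, and Mb has its highest mean in TN WT.

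The slow-fibre genes were low throughout. Myl3, the light chain of slow and ventricular myosin, was at 1.69, 1.52 and 1.98 TPM in RT WT and 2.58, 2.40 and 3.22 TPM in RT Txnip-/-, and at 0.76, 1.90 and 1.33 TPM in TN WT and 1.83, 2.66 and 2.497 TPM in TN Txnip-/-. The genotypes were apart at RT and touched at TN, where WT replicate 2 exceeded Txnip-/- replicate 1. Tnnc1, the calcium sensor of slow and cardiac troponin, was at 1.251, 1.02 and 1.21 TPM in RT WT, 0.88, 0.37 and 1.84 TPM in RT Txnip-/-, 0.85, 1.501 and 1.18 TPM in TN WT and 0.71, 1.095 and 0.87 TPM in TN Txnip-/-, with all groups overlapping. Tnni1, the slow inhibitory subunit, was at 0.22, 0.49 and 0.11 TPM in RT WT, 0.24, 0.31 and 0.27 TPM in RT Txnip-/-, 0.32, 0.47 and 0.70 TPM in TN WT and 0.43, 0.67 and 0.82 TPM (15 reads) in TN Txnip-/-. RT Txnip-/- lay below both TN groups, and the other groups overlapped. Myh7, Myl2, Tnnt1 and Mybpc1 were at most 0.83 TPM. At these depths 5 of the 7 slow genes rested on 26 reads or fewer in any library.

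Ratios among the genes were then compared. Over the 12 libraries the log2 ratio of Atp2a1 to the mean of the other fast genes (8 fast genes with a mean of at least 1 TPM) had an SD of 0.17, although its own log2 level had an SD of 1.52. The same ratio had an SD of 0.40 for Tnnc2, 0.52 for Tnni2, 0.82 for Acta1 and 0.83 for Ckm, each smaller than the SD of its level (1.60, 1.84, 2.03 and 2.29). For Myl1, Mb and Des the SD of the ratio was 1.86, 1.89 and 1.57, larger than the SD of the level (0.29, 0.60 and 0.19). The slow genes behaved as the latter, with ratio SDs of 1.22 for Myl3 and 1.54 for Tnnc1 against level SDs of 0.52 for both. The mean of the 8 fast genes itself had an SD of 1.49, which a gene at a steady level takes over into its ratio, and the median ratio SD of 0.91 over the 14 genes that averaged at least 1 TPM is a description, since 8 of them make up that mean. Tnnt3 had a ratio SD of 0.98 below its level SD of 2.32, whereas Mylpf, with 0.99 above 0.71, fell on the side of Myl1, Mb and Des. Myl1 is 1 of the 8 fast genes in the mean, and ratios of genes under 1 TPM lean on the 0.1 TPM added to each value. A gene that moves with this mean has a small ratio SD only if its level SD is near 1.49, as the 1.52 of Atp2a1 is. These SDs therefore do not rank the genes by how constant their ratios are.

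Within the 5 libraries with Acta1 at 1 TPM or more, Tnnc2 lay between 0.78 and 1.03 times Acta1, with an SD of 0.19 on the log2 scale beside a median counting error of 0.25. Tnnt3 (0.61 to 0.91 times Acta1), Atp2a1 (0.58 to 0.85), Tnni2 (0.40 to 0.68) and Mylpf (0.77 to 1.18) also had SDs of 0.30 or less. Their spread was between 0.94 and 1.26 times the counting error of a single ratio. Myh4 ran from 0.31 to 0.69 times Acta1 and Pvalb from 0.29 to 0.68, and Ckm was at 0.57 times Acta1 in TN Txnip-/- replicate 2 against 0.87 to 0.96 in the other 4 libraries. Myh4, Pvalb, Ckm, Atp2a1, Tnnt3 and Tnni2 all had their lowest ratio to Acta1 in TN Txnip-/- replicate 2, and Tnnc2, Mylpf and Myl3 did not. For Myh4 the SD of 0.44 was larger than the counting error of 0.17. Myl1 ran from 6.39 to 21.5 times Acta1 and Mb from 0.22 to 1.54 times, with SDs of 0.66 and 1.07 against counting errors of 0.14 and 0.23. Counting error covers the sampling of reads only.

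**Figure D3:**
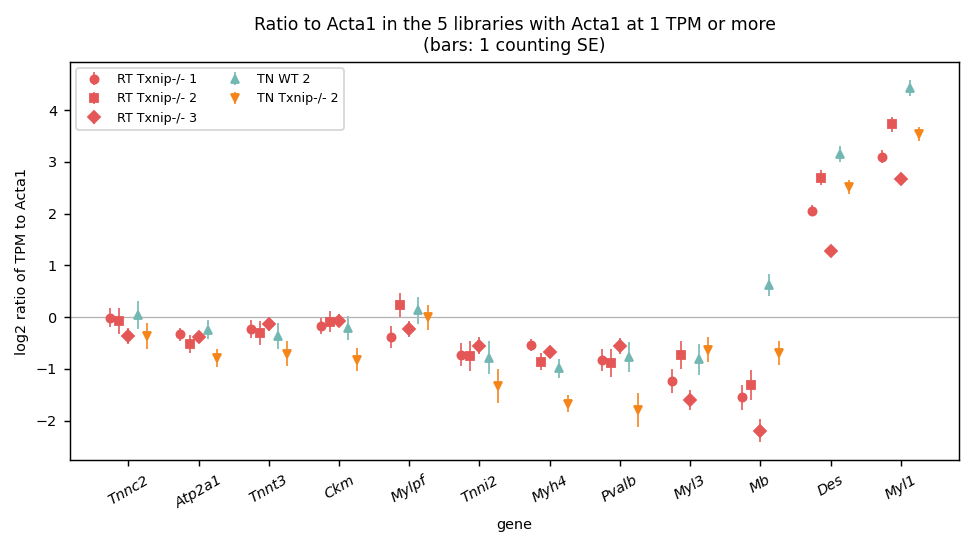
Log2 ratio of TPM to Acta1 (y axis) for 12 genes (x axis) in the 5 libraries where Acta1 was at 1 TPM or more (symbols), with bars of 1 counting SE. The points of Tnnc2, Atp2a1, Tnnt3 and Mylpf lie close together, those of Ckm, Tnni2, Myh4, Pvalb, Atp2a1 and Tnnt3 are lowest in TN Txnip-/- replicate 2, and Mb, Des and Myl1 spread over more than 1 log2 unit.

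Slow and fast isoforms of the same subunit were compared as ratios. Of 7 isoform pairs, 2 had both genes at a mean of at least 1 TPM and were tested, each for genotype and for temperature, by a two-sided exact permutation test in 400 relabellings whose smallest p is 0.005. The log2 ratio of Myl3 to Myl1 was between -5.52 and -5.14 in RT WT and between -4.40 and -4.23 in RT Txnip-/-, and between -6.41 and -5.17 in TN WT and between -4.55 and -4.13 in TN Txnip-/-. It was higher in all 6 Txnip-/- libraries than in all 6 WT libraries, 2.38-fold by the mean log2 ratio (exact permutation p = 0.005, adjusted over the 4 tests p = 0.02), and TN differed from RT by -0.20 (exact permutation p = 0.375, adjusted p = 0.5).

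The log2 ratio of Tnnc1 to Tnnc2 was 1.90, 1.62 and 1.33 in RT WT and -2.64, -3.05 and -1.99 in RT Txnip-/-, and 0.73, -1.15 and 0.39 in TN WT and -0.05, -1.47 and -0.17 in TN Txnip-/-. The mean genotype difference over both temperatures was -2.36, with an exact permutation p = 0.025 and an adjusted p = 0.05, which did not fall under the threshold of 0.05. The genotypes were apart at RT and overlapped at TN. Tnnc1 rested on 5 to 28 reads, and Tnnc2 on 4 to 12 reads in the libraries with low Acta1. Tnnc2 averaged at least 1 TPM only through the 5 libraries with high Acta1. TN differed from RT by 0.18 (exact permutation p = 0.805). For Myh7 to Myh4 the log2 ratio ran from -5.19 to 0.61, for Tnni1 to Tnni2 from -4.18 to 1.58 and for Tnnt1 to Tnnt3 from -3.28 to 1.71, and the 5 libraries with high Acta1 held the lowest values of each. Myl2 to Mylpf ran from -5.62 to -1.99 and Mybpc1 to Mybpc2 from -3.03 to 0.59, without that order.

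**Figure D4:**
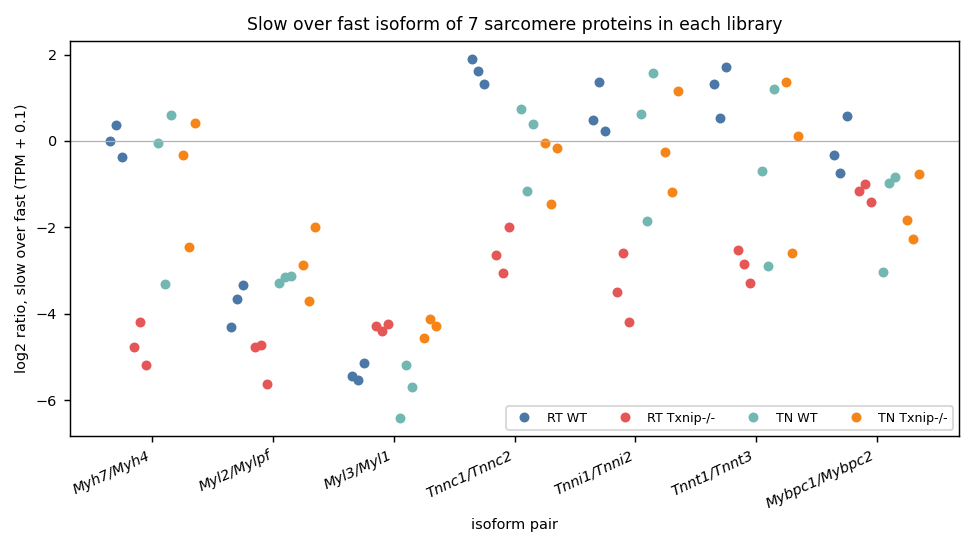
Log2 ratio of slow to fast isoform (y axis, 0.1 TPM added to each) for 7 pairs (x axis), with 1 point per library coloured by group. For Tnnc1/Tnnc2, Tnni1/Tnni2, Tnnt1/Tnnt3 and Myh7/Myh4 the 3 RT Txnip-/- points and 1 point of each TN group lie below the rest, and for Myl3/Myl1 both Txnip-/- groups lie above both WT groups.

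Genotype was compared at each temperature with limma on log2(TPM + 1), where a call needed a log2 fold change beyond 0.32 in either direction and a Benjamini-Hochberg adjusted p under 0.05 over all genes with a mean of at least 1 TPM. At RT, 14 of the 33 genes were tested and 9 were called higher in Txnip-/-, where 0.76% of all tested genes were called higher. They were 7 fast genes (Myh4, Atp2a1, Tnnt3, Tnnc2, Tnni2, Mylpf and Pvalb) and 2 shared genes (Acta1 and Ckm). A mean filter keeps such a gene through the group where it is high, so the 9 of 14 is no share of the 33. By values alone, 23 of the 33 genes were higher in all 3 RT Txnip-/- libraries than in all 3 RT WT libraries, where 11.9% of all genes were: 12 of 15 fast, 8 of 11 shared and 3 of 7 slow genes (Myl3, Tnnt1 and Mybpc1). A further 4 (Myl1, Actn2, Mb and Des) were lower in all 3, where 5.47% of all genes were. With every gene above 0 tested, 4 of the 33 were called higher, namely Ckm, Tnnt3, Tnnc2 and Acta1, and Myh4 (adjusted p = 0.0529) and Pvalb (adjusted p = 0.0584) were no longer called.

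The log2 fold change at RT, on this scale, was 2.66 (SE 0.26, limma adjusted p = 0.0123) for Ckm and 2.61 (SE 0.28, adjusted p = 0.0162) for Tnnt3. It was 2.33 (SE 0.21, adjusted p = 0.0121) for Tnnc2 and 2.30 (SE 0.26, adjusted p = 0.0199) for Acta1. Myh4 had 2.22 (SE 0.26, adjusted p = 0.0203) and Pvalb 2.16 (SE 0.29, adjusted p = 0.0256). The 1 TPM added to each value shortens these changes, since the WT levels were below 1 TPM. For Ckm the change was 5.11 with 0.1 TPM added, 6.13 in a fit of reads (voom) and 1.015 with the authors' log-scale values. The median over the 14 genes tested was 2.12 as fitted here and 3.47, 3.73 and 0.49 in those 3 settings, so the size depends on the setting. None of the 14 was called lower by limma, where 0.726% of all tested genes were, although 13 of the 14 had an unadjusted p under 0.05 beside 1921 of all 11980 genes, and voom (limma on the reads behind the TPM) called none lower and 8 higher beside 77 of the 11980. As the 14 passed the filter largely through RT Txnip-/-, nothing is read from these counts.

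Myl1 was lower by a log2 fold change of -0.42 at RT (SE 0.08, limma adjusted p = 0.0537), Mb by -0.54 (SE 0.11, adjusted p = 0.0624) and Des by -0.25 (SE 0.06, adjusted p = 0.106), and none of the 3 passed. With each library centred on its median, Myl1 (adjusted p = 0.0462) and Mb (adjusted p = 0.0437) passed. Myl1 also passed with upper-quartile scaling (-0.44, adjusted p = 0.0425) and with all 12 libraries in 1 fit (-0.42, adjusted p = 0.0128), where Acta1 did not (2.30, adjusted p = 0.0649). Myl3 had 0.45 (SE 0.12, adjusted p = 0.136). Without RT WT replicate 2 the count of the 14 called at RT fell to 0, and only 2 of all genes were then called. It was 2 without RT Txnip-/- replicate 1 and 3 without RT WT replicate 1. The median change over the 14 was 2.12, 2.13 and 2.14 in these 3 fits against 2.12 with all libraries. It was 2.11 without RT WT replicate 3 and 2.41 without RT Txnip-/- replicate 2. Without RT Txnip-/- replicate 3 it was 1.81 over 13 genes.

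At TN, 9 of the 33 genes were tested, and Myl1 and Des were called lower in Txnip-/-, where 2.17% of all tested genes were called lower. Myl1 fell by 0.61 on the log2 scale (SE 0.06, limma adjusted p = 0.00351) and Des by 0.40 (SE 0.07, adjusted p = 0.0155). Without TN WT replicate 3 the change of Des was -0.37 (adjusted p = 0.0524) and without TN Txnip-/- replicate 1 it was -0.35 (adjusted p = 0.0658), so that 1 gene was called in each. By limma 0 of the 9 were called higher, where 6.49% of all tested genes were, 4 of the 9 had an unadjusted p under 0.05 beside 3306 of all 12891 genes, and voom called none higher as well. Mb (-0.55, adjusted p = 0.153) did not pass and did so without TN Txnip-/- replicate 3 (-0.78, adjusted p = 0.0343). Myl3 differed by 0.53 (SE 0.19, adjusted p = 0.13) and Acta1, with replicate 2 of each genotype high, by 0.01 (SE 0.68). By values alone 0 of the 33 genes were higher in all 3 TN Txnip-/- libraries, where 13% of all genes were, and Myl1 and Des were lower in all 3, where 9.35% were.

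**Figure D5:**
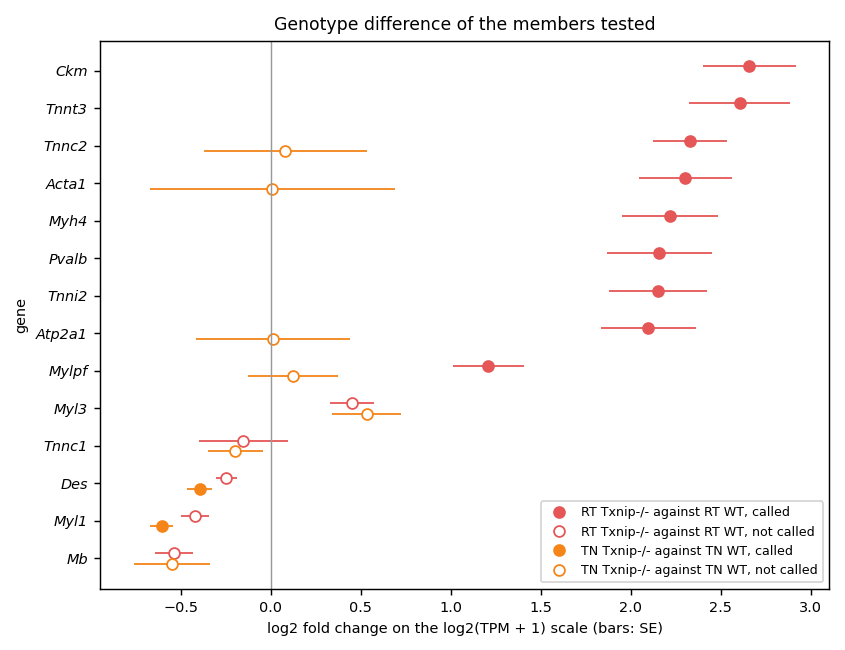
Log2 fold change of Txnip-/- against WT (x axis, on the log2(TPM + 1) scale, bars of 1 SE) for the genes tested (y axis), at RT in red and at TN in orange, filled where called. The 9 genes called at RT lie between 1.21 and 2.66, the fast genes tested at TN lie near 0 apart from Myl1, and Myl1 and Des are left of 0 at both temperatures.

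The difference between the genotype effects at the 2 temperatures was tested on all 12 libraries. By limma none of the 14 genes passed, where 0.00801% of all genes were called. The 9 genes called at RT had an unadjusted p under 0.05, as had 1571 of all 12486 genes, with differences between -2.73 for Ckm and -1.09 for Mylpf on the log2 scale and adjusted p between 0.145 and 0.308, and voom called none of the 14. Their genotype change at RT is 1 term of this difference, so these p-values follow in part from the choice of the 9. For Myl1 the difference was -0.19 (SE 0.10, adjusted p = 0.46), for Des -0.15 (SE 0.09, adjusted p = 0.5) and for Myl3 0.08 (SE 0.24, adjusted p = 0.911).

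Between temperatures, the median of all genes was higher at TN by 0.18 in WT and by 0.15 in Txnip-/- on the log2 scale, so that with each library centred on its median the calls over all genes went from 3919 higher and 798 lower to 1926 and 1841 in WT, and from 3858 and 1033 to 2294 and 2435 in Txnip-/-. In WT, 1 of the 14 genes was called higher at TN, where 31.4% of all tested genes were, and it was Mb, by 0.61 (SE 0.18, limma adjusted p = 0.0169). None was called lower, where 6.39% were, Mb alone of the 14 had an unadjusted p under 0.05 by limma beside 7110 of all 12486 genes, and voom called 0 lower. Centred on the median, Mb was higher by 0.43 and did not pass (adjusted p = 0.0773), nor did it without TN WT replicate 1 (0.47, adjusted p = 0.0692). Myl1 (-0.03), Des (-0.01) and Myl3 (-0.25) had adjusted p of 0.731, 0.888 and 0.239. Centred, they were at -0.21, -0.19 and -0.44 with adjusted p of 0.0307, 0.0325 and 0.0557, and Myl1 and Des were then still short of the fold threshold.

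In Txnip-/-, Mb was again higher at TN, by 0.60 (SE 0.18, limma adjusted p = 0.0175), the only 1 of the 14 where 30.9% of all genes were called higher, and it did not pass when centred, without RT Txnip-/- replicate 2 (0.52, adjusted p = 0.0687) or without TN Txnip-/- replicate 3 (0.37, adjusted p = 0.06). Myh4, Atp2a1, Tnnt3, Tnnc2, Tnni2, Mylpf, Pvalb, Acta1 and Ckm, 9 of the 14, were lower at TN, where 8.27% of all tested genes were. Most of these 9 passed the filter on the mean through RT Txnip-/-, where they are high, so nothing is read from the 9 of 14 against that share. Ckm fell by 2.04 (SE 0.50, adjusted p = 0.00529), Acta1 by 1.94 (SE 0.59, adjusted p = 0.0166) and Tnnt3 by 1.86 (SE 0.50, adjusted p = 0.0086). Myh4 fell by 1.81 (SE 0.40, adjusted p = 0.00293), Pvalb by 1.79 (SE 0.39, adjusted p = 0.00283) and Tnni2 by 1.5 (SE 0.38, adjusted p = 0.0069). The 1 TPM added to each value shortens these changes too. With 0.1 TPM added they were -3.38 for Ckm, -3.33 for Acta1 and -3.44 for Myh4, and by voom -3.61, -3.58 and -4.035. The same RT Txnip-/- libraries stand in this comparison and in the genotype comparison at RT, so the 2 are not independent. Acta1 did not pass without RT Txnip-/- replicate 3, TN Txnip-/- replicate 1 or TN Txnip-/- replicate 3 (adjusted p between 0.0643 and 0.0706). Without RT Txnip-/- replicate 3 the count fell from 10 to 6 of 11 genes tested. Des (-0.16) and Myl1 (-0.22) missed the fold threshold and passed it when centred, at -0.35 (adjusted p = 0.0011) and -0.41 (adjusted p = 0.000733), which made 11 of the 14 lower. Myl3 (-0.17) had an adjusted p = 0.426.

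Other muscle genes were read from lists beside the 33, and their counts stand against 0.76% of all tested genes called higher and 0.726% called lower at RT, and 6.49% and 2.17% at TN. Of 28 further sarcomere genes, 8 were tested at RT, with 0 called higher and 1 lower in Txnip-/-, Myom3, a protein of the middle line of the sarcomere (-0.70, SE 0.10, limma adjusted p = 0.0284). Tpm1, the most abundant of them and an actin-binding tropomyosin of many cell types, lay between 57.4 and 100.4 TPM. Of 15 excitation-contraction coupling genes, 7 were tested at RT with 0 called higher and 1 lower (Srl, -0.69, SE 0.12, adjusted p = 0.0458), and Atp2a2, the calcium pump of slow muscle and of most other cells, was the most abundant at 56.0 to 102.6 TPM.

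Of 13 genes of muscle energy metabolism, 11 were tested at RT with 1 called higher (Phkg1) and 2 lower (Cox7a1 and Fabp3). Cox7a1, a subunit of cytochrome oxidase also used by brown adipocytes, was at 697 to 1527 TPM. Of 14 myogenic regulators and junction genes, 4 were tested at RT and 0 were called in either direction, and the most abundant was Mef2d at 22.8 to 32.5 TPM. At TN the same 4 lists had 1 of 8, 0 of 9, 2 of 11 and 0 of 4 tested genes called higher in Txnip-/-, and 0, 1, 2 and 0 called lower. Among their genes Myom2, Xirp2 and Ckmt2 had the same 5 highest libraries as Acta1, each at or under 0.22 TPM.

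None of the listed cardiac (11), smooth muscle (10), brown adipocyte (10), macrophage (6), endothelial (5) or Schwann and nerve (5) genes had the 5 highest libraries of Acta1. Only 0.113% of all genes had them, so finding none in lists this short says nothing on these cell types. The cardiac list summed to between 6.53 and 8.31 TPM in every library, with Myl4 leading. In all libraries 8 of the 11 genes, Myh6 and Nppa among them, were under 1 TPM. Pln lay between 0.851 and 1.975 TPM. Tnni3 was at 1.19, 1.62 and 0.75 TPM in TN Txnip-/- and at most 0.53 TPM in the other groups. The smooth muscle list summed to between 91.9 and 111.8 TPM in RT WT and 114.1 and 121.5 TPM in RT Txnip-/-, and to 96.8 to 121.9 TPM and 119.1 to 147.6 TPM at TN. The macrophage list had 2 of 5 tested genes called higher in Txnip-/- at RT (0.76% of all tested genes) and 6 of 6 at TN (6.49%). The brown adipocyte list had 1 of 10 called lower at RT (0.726% of all) and 4 of 10 at TN (2.17%). At TN it summed to 6045 to 6853 TPM in WT and 3170 to 3804 TPM in Txnip-/-, where Myl1 and Des were lower too. That order did not hold across temperatures. RT Txnip-/- summed to 7750 to 9927 TPM, above TN WT, yet had Myl1 and Des below TN WT. The part of other cells in the contractile gene levels was not tested.

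Exons of other genes bear on some of these values. In the annotation, 17 of the 33 genes share exon bases with a gene on the opposite strand, and the sources do not state that counting used strand. Myl3 shares 95 bases with Pth1r, a receptor gene at 11.8 to 20.95 TPM in WT and 26.4 to 42.3 TPM in Txnip-/-, so the Myl3 level, and its ratio to Myl1, cannot be told apart from reads of Pth1r at those bases. Mb shares 64 bases with Apol6 and 412 with Gm49540. Apol6 was at 20.2 to 23.7 TPM in RT WT and 29.2 to 37.4 TPM in TN WT, and at 11.5 to 20.9 TPM in RT Txnip-/- and 32.2 to 49.1 TPM in TN Txnip-/-, so it was higher at TN as Mb was, and reads of the 2 genes at those bases cannot be told apart. Ckm shares 451 bases with A930016O22Rik, an antisense gene whose log2 ratio to the fast genes had an SD of 0.22, the smallest of 17656 other genes with a mean of at least 0.1 TPM, followed by 0.98 for Dmrtc1a. Atp2a1 shares 763 bases with Rabep2, Tnnc2 592 bases with Ube2c and Des 220 bases with Gm15179, and the part of these genes in the values was not tested. Among the 12472 other genes with a mean of at least 1 TPM, the smallest SDs were 1.06 for Tfrc and 1.07 for Ptgis, then between 1.14 and 1.252 for Mir7115, Gm2011, Gm35986, Sntb1, Acaca, Eln, 2310069B03Rik and Cnn1.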

How the data were processed

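Polyadenylated RNA of interscapular BAT was sequenced in 12 libraries, 3 in each of 4 groups taken from the sample labels. Per the labels and methods, the authors aligned reads to mm10 with STAR 2.7.5a and counted exons of 1 transcript per gene with HOMER 4.11.1. The strand setting of counting is not given in the sources used here. The authors deposited TPM for all libraries, and tables of log2-scale values with their own DESeq2 log2 fold changes, p-values and adjusted p-values, none of which was used. The deposited log2-scale values served as an alternative for the genotype comparisons. They rest on another transcript than the TPM for 5 of the genes (Tnnt3, Mylpf, Myl1, Tnni1 and Ttn) in both tables, and for Acta1 at RT.

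The deposited TPM were tested as log2(TPM + 1) with limma 3.58.1 (R 4.3.3, trended empirical Bayes) over genes with a mean of at least 1 TPM. Genotype was fitted on the 6 libraries of a temperature, and the interaction and temperature comparisons on all 12. Interaction calls needed an adjusted p under 0.05 only. Ratios used 0.1 TPM added to each value. TPM times transcript length came in whole steps: 100% of the 7701 to 9003 low values checked per library lay within 0.1 of a whole read, which gave 19186771 to 29232408 reads. Limma voom on these reads was chosen after seeing the data, as were median centring, ratios to Acta1, the lower limit of 0.1 TPM for like genes and the count of shared highest libraries. Other alternatives were another pseudocount, no filter, upper-quartile scaling, a replicate block, other libraries in the fit and leaving out each library. The fits were also run on simulated reads in which genes changed by set folds in a whole group. Single high libraries within a group and very low group levels were not simulated, so that run does not cover them.

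The 33 genes and the other lists were chosen with earlier results of these data known. Values in every library are given for the 3 most abundant genes of each class and for tested isoform pairs. Test values are given for at most the 6 largest called changes of a comparison and the most abundant gene of each class. They are also given for Mb in the genotype and temperature comparisons and for Acta1 at TN. Beside them, the values of Ckm, Myh4, Myh1 and genes outside the lists were picked after their values were seen.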

Additional observations from a re-analysis of the deposited data

How the results depend on the processing

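Of the 14 genes tested at RT, 9 were called, and between 0 and 9 when a library was left out; with all genes above 0 tested the count was 4. At TN 2 were called, 1 with the authors' log-scale values and between 1 and 3 with a library left out. The interaction gave 0 calls, 0 with any library left out, and 2 with a replicate block (Tnnc2 and Ckm). For temperature in WT the count of 1 became 2 with all genes above 0 and 0 with median centring, and in Txnip-/- the count of 10 lay between 6 and 10 with a library left out and was 11, all lower, with median centring. The labels do not say that the replicate numbers pair libraries. Deviations from the group mean in same-numbered libraries of the 2 genotypes correlated at 0.30, -0.01 and 0.22 at RT. At TN they correlated at 0.04, 0.02 and -0.03. These values do not settle whether the numbers pair libraries, and both TN libraries with high Acta1 are replicate 2. With the replicate block 8 genes were called at RT and 2 at TN. The median SD of the log2 ratios was 0.908 over 14 genes and 12 libraries. Ratios to Acta1 where both genes reached 1 TPM gave 0.36 over 12 genes in 5 libraries, which is another quantity. The genotype difference of Tnnc1 to Tnnc2 lay between -2.65 and -2.14 with a library left out, with adjusted p of 0.02 without TN WT replicate 2 and 0.04 without TN Txnip-/- replicate 1 by the exact permutation test. Its temperature difference lay between -0.00074 and 0.47 and changed sign without TN WT replicate 1. With a library left out, the interaction of Myl3 lay between -0.10 and 0.25 and the WT temperature difference of Des between -0.0366 and 0.0211, both changing sign without TN WT replicate 1; by voom the latter was 0.00997. The cause was not tested. Precision is limited by reads: in the 7 libraries with low Acta1 it rested on 20 reads or fewer.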

Other observations

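Myh1 was at 1.06 TPM in RT Txnip-/- replicate 3 and Myh4 at 6.09 TPM, while in RT Txnip-/- replicate 2 they were at 0.05 and 2.19 TPM. The sum over the 33 genes was highest in RT Txnip-/- replicate 3 (176.4 TPM) and lowest in TN Txnip-/- replicate 1 (80.7 TPM).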
